A study of Mus musculus with 2 samples.

Results

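Egln3, Bnip3, Pdk1, Vegfa, Slc2a1, Aldoa, Pgk1 and Ldha are 8 genes of the response to low oxygen and of glycolysis, which were taken by name and all of which were among the 11691 genes of the UMI table. They were read in 2 single-cell libraries of blood cells grown from E8.5 mouse conceptuses (C57/BL6, 5 to 7 somite pairs). Em-Ex cells came from explants of the embryo and YS-Ex cells from explants of the yolk sac (YS), which were each pooled over conceptuses, held for 10 days at an air-liquid interface with SCF, IL-3 and FLT3 ligand at 100 ng/ml each, dissociated and sorted as CD31+CD45+c-Kit+CD41- cells. In a droplet assay, 8600 sorted cells per sample were loaded, and each captured transcript was counted once by its unique molecular identifier (UMI). With 1 library per tissue, no test was run, and each interval in parentheses is a 95% interval that covers counting error only (exact Poisson for levels, exact Clopper-Pearson for shares of cells and for ratios). A difference between the libraries and a difference between the tissues cannot be told apart.

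Cells sense oxygen through prolyl hydroxylases, which mark the alpha subunits of the hypoxia-inducible factors (HIFs) for destruction through the VHL protein while oxygen is present. When oxygen is low, the subunits persist, pair with ARNT and bind short DNA elements near their target genes. Among such targets, Egln3 encodes one of the prolyl hydroxylases themselves, Bnip3 a protein of the outer mitochondrial membrane that directs mitochondria to autophagy, and Pdk1 a kinase that inhibits pyruvate dehydrogenase and so keeps pyruvate out of the TCA cycle. Vegfa encodes a secreted growth factor for endothelium, and Slc2a1 the glucose transporter GLUT1. Aldoa, Pgk1 and Ldha encode the glycolytic enzymes aldolase A, phosphoglycerate kinase and the lactate dehydrogenase A subunit, which most growing cells use at all times and which HIF-1 raises further. Blood stem and progenitor cells are known for a reliance on glycolysis.

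The core of the element that HIFs bind reads ACGTG or GCGTG, and these letters were looked for on both strands (CACGT and CACGC on the strand shown) in the 250 bases before each transcription start, as given by RefSeq for GRCm38.p6. All 8 genes matched an entry, and all 8 had the letters in at least 1 of their promoters, as did 41.5% of all 27025 genes. By promoter, 10 of the 13 listed for the 8 genes held a match, while 38.6% of all 32851 promoters of that table did. The promoters of the 8 genes were also richer in G and C (median 62.8% against 52.4%), and among all promoters with at least 60% G and C, 63.8% held a match. Some of the 13 overlap (2 of Aldoa), so they are not separate draws. The promoters of the genes that the results turn on, and of Ldha as the glycolytic gene with most matches, are shown 5′ to 3′ on the strand of the gene, ending at the base before the start, with matches in capitals. A match within CACGTG is also a match to the E-box read by other factors, which 6.02% of all promoters held, and a match is a run of letters, not a measured binding site.
Egln3 (chr12:54203875-54204124, minus strand): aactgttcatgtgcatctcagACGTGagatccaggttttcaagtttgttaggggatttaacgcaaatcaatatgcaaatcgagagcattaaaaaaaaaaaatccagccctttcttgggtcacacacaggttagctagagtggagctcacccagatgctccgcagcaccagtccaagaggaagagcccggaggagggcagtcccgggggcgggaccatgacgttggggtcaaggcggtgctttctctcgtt
Bnip3 (chr7:138909507-138909756, minus strand): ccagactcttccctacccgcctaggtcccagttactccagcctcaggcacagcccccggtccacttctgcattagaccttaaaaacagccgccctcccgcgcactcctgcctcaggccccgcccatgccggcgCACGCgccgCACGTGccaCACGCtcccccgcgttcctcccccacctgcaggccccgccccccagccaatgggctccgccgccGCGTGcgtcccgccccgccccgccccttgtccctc
Pdk1 (chr2:71872974-71873223, plus strand): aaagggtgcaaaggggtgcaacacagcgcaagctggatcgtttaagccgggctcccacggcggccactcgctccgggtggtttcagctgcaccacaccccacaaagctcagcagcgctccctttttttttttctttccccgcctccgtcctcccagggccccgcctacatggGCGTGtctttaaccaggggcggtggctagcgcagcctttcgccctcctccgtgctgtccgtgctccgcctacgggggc
Ldha (chr7:46845554-46845803, plus strand): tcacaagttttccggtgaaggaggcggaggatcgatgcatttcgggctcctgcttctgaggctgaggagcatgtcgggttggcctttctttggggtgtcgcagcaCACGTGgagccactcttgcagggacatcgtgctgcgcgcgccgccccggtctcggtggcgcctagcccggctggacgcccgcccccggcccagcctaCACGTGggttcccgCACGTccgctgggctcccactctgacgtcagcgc
Bnip3 and Ldha each had 5 matches, with CACGTG among them, while Egln3 and Pdk1 had 1 each, outside CACGTG. Each CACGTG was counted as 2 matches, because it holds the letters on both strands. Pgk1 (chromosome X) and Slc2a1 (chromosome 4) had 2 matches each. The second promoters listed for Ldha and Pdk1 had 1 and 0. For Vegfa (chromosome 17), the first of 2 promoters had 0 and the second 2, and for Aldoa (chromosome 7) the 3 promoters had 0, 1 and 1.

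After the stated filter on cells, Em-Ex held 3071 cells with 42752370 UMIs (median 12341 per cell) and YS-Ex 2087 cells with 27031627 UMIs (median 11729). Both libraries were dominated by genes of mast cells. Cpa3, a mast cell protease, reached 40 UMIs per 10000 in 2200 Em-Ex cells and 1946 YS-Ex cells, which are called Cpa3-high here, against 871 and 141 Cpa3-low cells. Of the genes of the sort, Pecam1 (CD31), Ptprc (CD45) and Kit were at 47.4, 47.4 and 262 CPM (counts per 1000000 UMIs, summed over cells) in Em-Ex and at 51.8, 106 and 963 CPM in YS-Ex, while Itga2b (CD41), the marker the sort selected against, was found at 16.4 and 14.1 CPM. A total of 35 barcodes occurred in both libraries, and after the filter such barcodes made up 18 of the Cpa3-low cells of Em-Ex and 14 of those of YS-Ex.

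All 8 genes were detected in both libraries. Ldha and Aldoa were found in nearly every cell, with UMIs of Ldha in 99.6% (99.4–99.8%) of the cells of Em-Ex and 99.7% (99.4–99.9%) of those of YS-Ex and UMIs of Aldoa in 99.5% and 98.5%. The other 6 genes were found in a minority of cells. Slc2a1 was seen in 32.2% of Em-Ex cells but 28.1% of the YS-Ex cells, Bnip3 in 19.0% and 23.3%, Pgk1 in 14.8% and 18.4%, Egln3 in 14.4% and 8.10%, Pdk1 in 14.7% and 5.70% and Vegfa in 5.21% and 14.6%. With every cell thinned to 5000 UMIs, which left out 102 Em-Ex and 130 YS-Ex cells, Egln3 was seen in 6.10% (5.26–7.02%) and 3.68% (2.89–4.61%) of the cells. No cell type in the table is known to lack these genes, so no background share from free RNA could be read. Egln3 and Bnip3 were also uneven among the cells that had them, with up to 14 Egln3 and 17 Bnip3 UMIs in single Em-Ex cells and up to 20 and 22 in single YS-Ex cells.

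The libraries differed most in Pdk1 and Vegfa, in opposite directions. Over all cells, Pdk1 was at 16.4 CPM (15.3–17.7) in Em-Ex, with 4.77 CPM (3.98–5.67) in YS-Ex, giving a ratio of 3.45 (2.85–4.19), while Vegfa had 4.30 CPM (3.70–4.97) and 15.2 CPM (13.8–16.7), for a ratio of 0.283 (0.237–0.338). Egln3 was at 19.2 CPM (17.9–20.5) in Em-Ex, with 10.4 CPM (9.22–11.7) in YS-Ex, giving a ratio of 1.85 (1.61–2.12). These 3 genes were past 1.5-fold, 2 of the 8 higher and 1 lower in Em-Ex, where 16.5% of the 7227 genes with at least 10 CPM in either library were higher and 22.3% lower by the same measure. Without the cells that had a UMI of Mki67 or Top2a, genes of mitosis, the log2 ratio of Egln3 fell from 0.88 to 0.40, under 1.5-fold, that of Pdk1 from 1.78 to 0.99, and Ldha at 0.63 and Pgk1 at −0.72 passed 1.5-fold. As a mean over cells, the log2 ratio of Egln3 was 0.55, also under 1.5-fold, and that of Pgk1 −0.60, past it. The other 5 genes were within 1.5-fold over all cells. Ldha was higher in Em-Ex, with 1871 CPM (1858–1884) against 1296 CPM (1283–1310), and so was Aldoa, at 958 CPM (949–967) against 731 CPM (721–741). Bnip3 was lower in Em-Ex, at 27.1 CPM (25.5–28.7) against 37.7 CPM (35.4–40.1), as was Pgk1, at 12.8 CPM (11.7–13.9) against 18.4 CPM (16.8–20.1). Slc2a1 had 33.3 CPM (31.6–35.1) and 29.2 CPM (27.2–31.3), for a ratio of 1.14 (1.04–1.25).

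**Figure D1:**
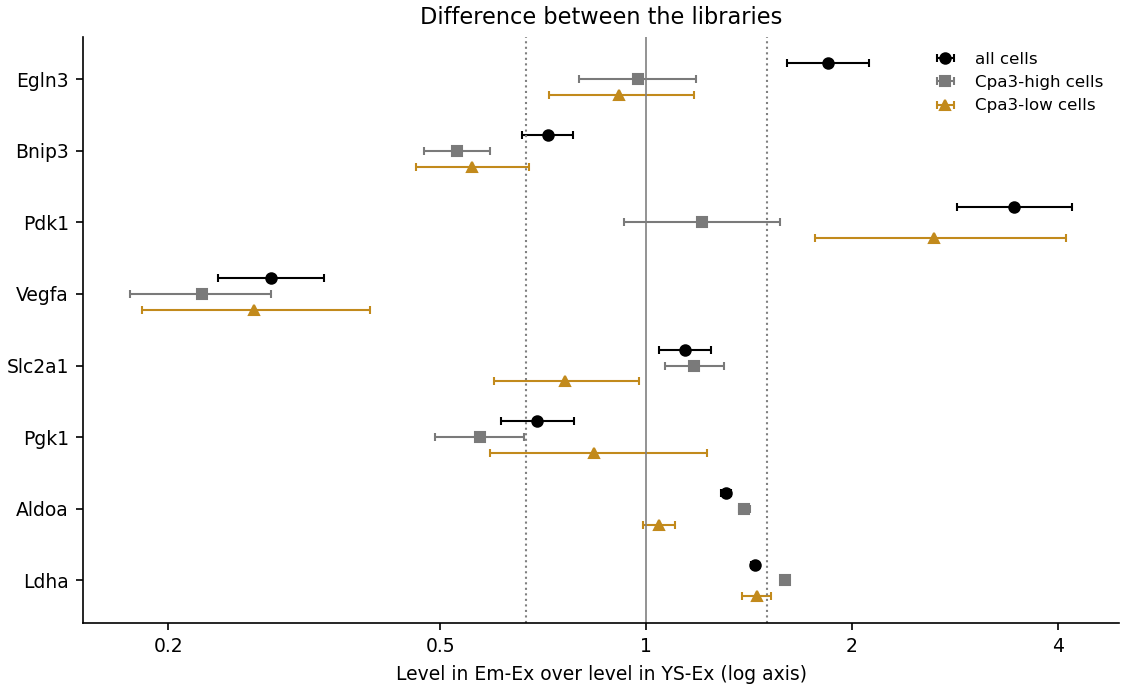
Level in Em-Ex over level in YS-Ex for each gene on a log axis, over all cells (circles), Cpa3-high cells (squares) and Cpa3-low cells (triangles), with 95% counting intervals as bars and dotted lines at 1.5-fold in either direction. The Egln3 ratio sits at 1.85 over all cells and near 1 when pooled over either class of cells, which hold ranges of Cpa3 with ratios from 0.379 to 1.90, while Vegfa stays below 0.3 in all 3.

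Pooled over either class of cells, the ratio of Egln3 between the libraries was near 1, though it was not near 1 in every range of Cpa3. Among Cpa3-high cells it was at 7.85 CPM (6.84–8.98) in Em-Ex, with 8.08 CPM (7.01–9.27) in YS-Ex, giving a ratio of 0.972 (0.799–1.18), and among Cpa3-low cells at 39.4 CPM (36.3–42.6) and 43.1 CPM (34.0–53.8), giving a ratio of 0.914 (0.720–1.17). Within the Cpa3-low class, cells with under 5 Cpa3 UMIs per 10000 had Egln3 at a ratio of 1.90 (1.16–3.35) and those with 20 to 40 at a ratio of 0.379 (0.2602–0.556). Within the Cpa3-high class it was below 1 in all 3 ranges, at 0.759 (0.541–1.08) for 40 to 80, 0.894 (0.650–1.23) for 80 to 160 and 0.476 (0.274–0.791) for 160 or more. The Cpa3-low cells also lay in different clusters, since 549 of 871 were in mostly Cpa3-low clusters in Em-Ex and all 141 in mostly Cpa3-high clusters in YS-Ex. Cpa3-low cells, in which Egln3 was higher, made up 28.4% of Em-Ex and 6.76% of YS-Ex cells. Pdk1 behaved in part like Egln3. In Cpa3-high cells it was at 4.97 CPM (4.17–5.88) in Em-Ex, with 4.12 CPM (3.37–4.99) in YS-Ex, giving a ratio of 1.21 (0.927–1.57), whereas in Cpa3-low cells it was at 36.9 CPM (33.9–40.05) and 14.0 CPM (9.05–20.6), giving a ratio of 2.64 (1.77–4.11). Within the Cpa3-low class its ratio was 2.32 (1.37–4.28) under 5 Cpa3 UMIs per 10000 and 0.480 (0.203–1.22) at 20 to 40. Vegfa, Bnip3 and Ldha kept their difference inside both classes, though Bnip3 not in every range. Vegfa was at 3.29 CPM (2.64–4.04) in Cpa3-high cells of Em-Ex and 14.7 CPM (13.2–16.2) in those of YS-Ex, a ratio of 0.224 (0.176–0.283), and its ratio was 0.267 (0.183–0.395) in Cpa3-low cells. For Bnip3 the ratios were 0.529 (0.474–0.591) and 0.556 (0.461–0.674), with 0.864 (0.613–1.26) under 5 Cpa3 UMIs per 10000 and 0.320 (0.237–0.434) at 20 to 40, and for Ldha 1.60 (1.58–1.62) and 1.45 (1.38–1.52). Among Cpa3-high cells, 1 of the 8 genes (Ldha) was higher and 3 (Bnip3, Pgk1 and Vegfa) were lower in Em-Ex past 1.5-fold, beside 8.49% and 24.2% of all genes, where 6 of the 8 passed the level minimum and Egln3 and Pdk1 did not. Among Cpa3-low cells, 1 (Pdk1) was higher and 2 (Bnip3 and Vegfa) were lower, beside 19.0% and 28%.

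Copies of Pgk1 and Bnip3 elsewhere in the genome limit what their counts mean. Of the 1825 bases of the main Pgk1 transcript, 68.8% have a stretch of at least 90 bases at 98% identity or more in 3 other annotated genes, among them Pgk1-rs7, which was counted on its own in the table at 0.702 CPM in Em-Ex but 1.66 CPM in YS-Ex. For Bnip3, 68.6% of 1756 bases have such a stretch in 4 other genes, 1 of which lies across Bnip3 itself on the other strand. Reads that fit several genes may not have been counted, so the levels of both are uncertain. For Slc2a1 the share was 3.31%, and for the other 5 genes no such stretch was found.

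Other genes of the same pathways were read from lists. Of 20 further glycolysis genes, 14 passed the level minimum, of which 5 were higher in Em-Ex past 1.5-fold and 4 lower, beside the 16.5% and 22.3% of all genes. Among Cpa3-high cells 0 of 13 were higher and 2 lower, beside 8.49% and 24.2% of all genes. Among Cpa3-low cells 7 of 14 were higher and 3 lower, beside 19.0% and 28% of all genes. Over all cells, those higher included Tpi1, triosephosphate isomerase, at 339.9 CPM against 219 CPM in YS-Ex, and Pfkl, a phosphofructokinase, at 37.8 CPM against 21.3 CPM, whose ratios in Cpa3-high cells were 1.41 (1.36–1.46) and 1.23 (1.097–1.38). Those lower included the glucose transporter gene Slc2a3, at 30.8 CPM in Em-Ex but 72.3 CPM in YS-Ex, and the hexokinase gene Hk2, at 48.5 CPM and 99.4 CPM. Of 24 further hypoxia-induced genes, 18 passed the minimum, with 3 higher and 4 lower in Em-Ex, which is near the shares of all genes, and among Cpa3-high cells 1 of 18 was higher and 2 lower. Ankrd37 was higher over all cells, at 18.9 CPM in Em-Ex but 10.1 CPM in YS-Ex, though under 1.5-fold in both classes, with ratios of 1.35 (1.13–1.601) in Cpa3-high and 1.23 (0.903–1.71) in Cpa3-low cells, while Kdm3a, which encodes a histone demethylase, was lower, at 9.36 CPM and 20.5 CPM. Over all cells, the median log2 ratio was 0.31 over the tested glycolysis genes and −0.04 over the tested hypoxia-induced genes, beside 0.01 over all genes tested. Of the 7 genes of oxygen sensing in the table, 5 passed the minimum, none of them higher in Em-Ex and 2 lower. Hif1a, the HIF-1 alpha subunit, was at 58.7 CPM (56.4–61.0) in Em-Ex, with 189 CPM (184–194) in YS-Ex, giving a ratio of 0.310. Over all cells, Vegfa, Bnip3 and Pgk1 went in the direction of Hif1a, and Egln3, Pdk1, Ldha, Aldoa and Slc2a1 in the opposite one. Arnt, the partner of Hif1a, was at 10.0 CPM in Em-Ex but 15.7 CPM in YS-Ex. Of 17 genes of pyruvate use and the TCA cycle, 4 of the 15 tested were higher in Em-Ex and none lower, with Fh1, fumarate hydratase, at 60.7 CPM against 27.7 CPM.

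Cpa3-low cells were compared with Cpa3-high cells within each library. Pooled over clusters, Egln3, Bnip3 and Pdk1 were higher in the Cpa3-low cells of both libraries and Ldha was lower, though not all of these in Em-Ex once clusters 3, 8 and 9 were left out. Without them the log2 ratio turned from 2.89 to −0.20 for Pdk1, from −0.53 to 0.03 for Ldha and from −0.21 to 0.19 for Aldoa, and that of Egln3 was 1.52 in place of 2.32. Egln3 was at 39.4 CPM in Cpa3-low and 7.85 CPM in Cpa3-high cells of Em-Ex, a ratio of 5.01 (4.28–5.88), and at 43.1 CPM against 8.08 CPM in YS-Ex, a ratio of 5.33 (4.05–6.96). Of the 77 Egln3 UMIs in the Cpa3-low cells of YS-Ex, 40 were in the 26 cells of cluster 1. The 59 of cluster 6 had Egln3 at 27.99 CPM (18.7–40.2), and the 28 of cluster 3 had 1 UMI, at 4.31 CPM (0.109–24.0). By Cpa3, 49 of the 77 were in cells with 20 to 40 Cpa3 UMIs per 10000. With a limit of 20 in place of 40, Egln3 had 29.7 CPM below and 9.70 CPM above it, a ratio of 3.06 (1.99–4.53). Pdk1 had ratios of 7.43 (6.15–9.02) for Em-Ex and 3.39 (2.10–5.29) in YS-Ex. For Bnip3, the level was 42.3 CPM (39.1–45.7) against 18.5 CPM (16.9–20.2) in Em-Ex and 76.1 CPM (63.8–89.99) against 35.0 CPM (32.7–37.4) in YS-Ex, which are ratios of 2.28 (2.03–2.57) and 2.18 (1.80–2.61). In YS-Ex, a limit of 80 gave ratios of 1.395 (1.20–1.61) for Bnip3 and 1.92 (1.28–2.83) for Pdk1. Vegfa was also higher in Cpa3-low cells, with ratios of 1.86 (1.38–2.51) and 1.56 (1.10–2.16), though in YS-Ex the ratio was 1.19 (0.687–1.93) with a limit of 20 and 1.24 (0.972–1.57) with a limit of 80. Ldha had ratios of 0.694 (0.683–0.705) for Em-Ex and 0.763 (0.728–0.801) in YS-Ex, and with a limit of 80 they were 0.897 (0.884–0.909) and 0.980 (0.954–1.007). With the limit of 40, none of the remaining genes had the same direction beyond its counting interval in both libraries. Slc2a1 was at 33.6 CPM against 33.1 CPM in Em-Ex, where scaling by the median ratio of all genes turned its log2 ratio from 0.02 to −0.15, and had a ratio of 1.57 (1.23–1.98) in YS-Ex. Pgk1 had a ratio of 1.62 (1.36–1.92) in Em-Ex and 1.10 (0.761–1.55) in YS-Ex, intervals that overlap. With a limit of 80 its ratios were 1.58 (1.31–1.90) and 1.36 (1.10–1.68). Aldoa had ratios of 0.862 (0.844–0.880) in Em-Ex and 1.15 (1.09–1.21) in YS-Ex.

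**Figure D2:**
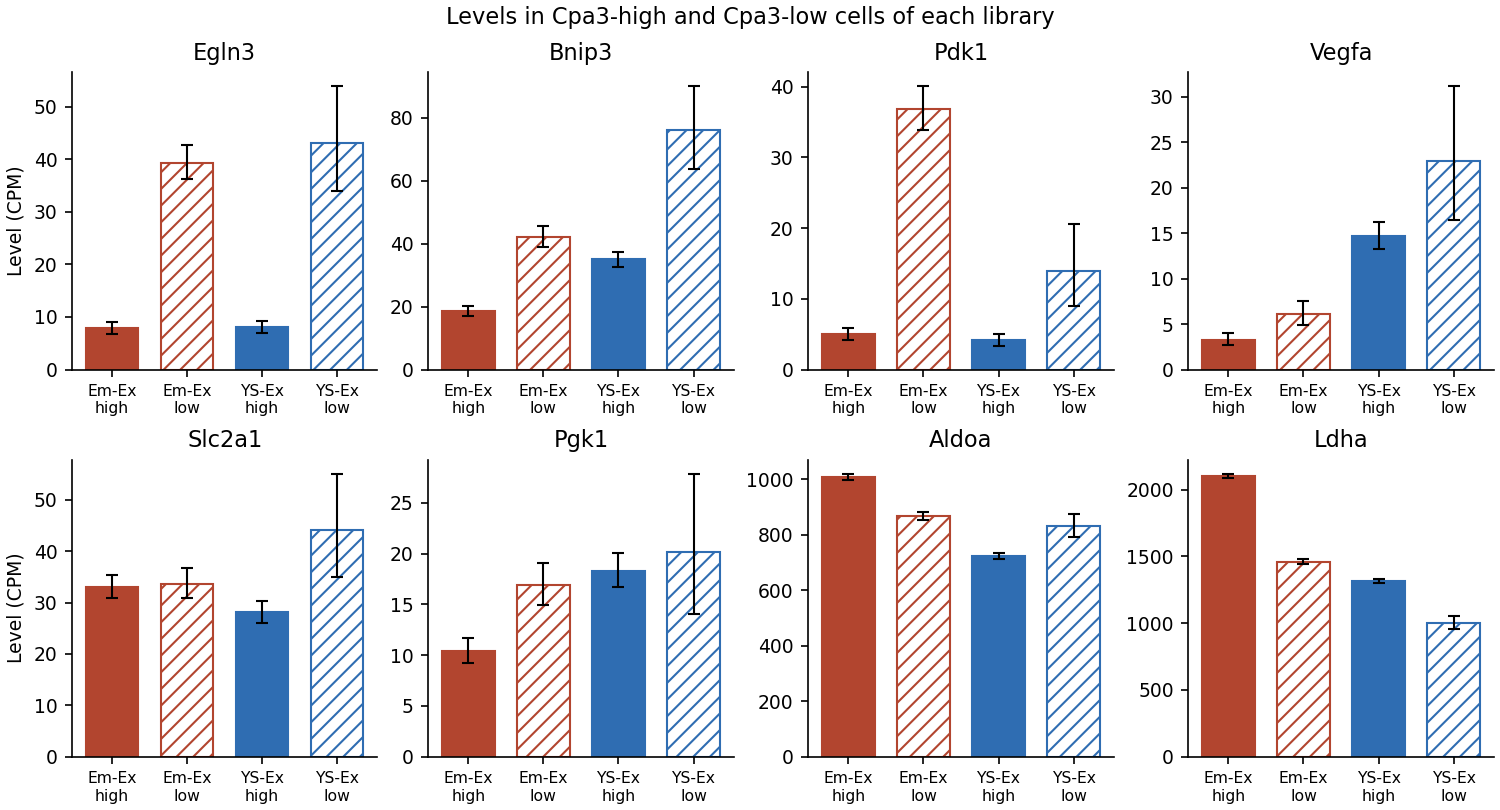
Level of each gene in counts per 1000000 UMIs (CPM) in Cpa3-high cells (filled bars) and Cpa3-low cells (hatched bars) of Em-Ex (red) and YS-Ex (blue), with 95% counting intervals. Egln3 stands near 8 CPM in the Cpa3-high cells and near 40 CPM in the Cpa3-low cells of both libraries, and Pdk1 is highest in the Cpa3-low cells of Em-Ex at 36.9 CPM.

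In Em-Ex, 5 of the 8 genes (Egln3, Bnip3, Pdk1, Vegfa and Pgk1) were higher in Cpa3-low cells past 1.5-fold and none was lower, where 29.4% of all 7246 genes tested were higher and 14.4% lower. In YS-Ex, 5 (Egln3, Bnip3, Pdk1, Vegfa and Slc2a1) were higher and none lower, beside 18.3% and 6.99% of 7536 genes. Vegfa in Em-Ex was under the level minimum of 10 CPM in both classes. The median log2 ratio of all genes tested was itself above 0 (0.24 for Em-Ex, 0.13 for YS-Ex). Scaling to the median over genes with at least 10 CPM in both classes, which was 0.17 and 0.09, gave 21.3% of all genes higher and 18.7% lower in Em-Ex and 14.97% and 8.90% in YS-Ex, where Vegfa and Slc2a1 were then no longer past 1.5-fold. In Em-Ex, Pgk1 was then no longer past 1.5-fold either and Ldha was lower past it, with a log2 ratio of −0.70. The classes also differed in depth, with a median of 16935 UMIs per Cpa3-low and 11245.5 per Cpa3-high cell in Em-Ex and 10227 and 11809 in YS-Ex. At 5000 UMIs per cell, Egln3 was seen in 13.5% (11.2–16.0%) of Cpa3-low and 3.16% (2.45–3.99%) of Cpa3-high cells of Em-Ex and in 13.6% (7.63–21.8%) and 3.13% (2.38–4.03%) of those of YS-Ex.

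The Cpa3-low cells were not of 1 kind. Their summed markers of neutrophil progenitors were at 949 CPM in Em-Ex but 505 CPM in YS-Ex, against 29.7 and 16.2 CPM in Cpa3-high cells, those of macrophages at 633 and 1508 CPM against 203 and 69.4 CPM, and those of the erythroid lineage at 2135 and 1879 CPM against 97.3 and 219 CPM. Elane and Ctsg are listed at 0 in YS-Ex. Of 12 genes of mitosis, 11 were higher in the Cpa3-low cells of each library. Without the cells that had a UMI of Mki67 or Top2a, the log2 ratio between Cpa3-low and Cpa3-high cells was 2.52 for Em-Ex and 3.15 for YS-Ex for Egln3, 1.59 and 1.704 for Bnip3 and 2.59 and 1.93 for Pdk1. The part of the other markers in the ratios of the 8 genes was not tested, but the Cpa3-low cells of Em-Ex could be divided by their cluster. The 549 cells in clusters that were mostly Cpa3-low (clusters 3, 8 and 9) had Pdk1 at 50.4 CPM (46.3–54.8) and Egln3 at 46.4 CPM (42.4–50.6). The 322 Cpa3-low cells that lay in mostly Cpa3-high clusters had Pdk1 at 4.22 CPM (2.54–6.59), beside 4.97 CPM in Cpa3-high cells, yet Egln3 at 22.4 CPM (18.3–27.3), Bnip3 at 33.3 CPM (28.2–39.1) and Ldha at 2146 CPM (2103–2189). The higher Pdk1 of Em-Ex Cpa3-low cells was thus found in clusters 3, 8 and 9. Pooled, Egln3 and Bnip3 were higher than in Cpa3-high cells in both kinds of Cpa3-low cell. Among the 322 cells, Bnip3 varied by cluster. It was at 17.5 CPM (12.6–23.7) in the 134 cells of cluster 2 and 19.9 CPM (9.95–35.7) in the 33 of cluster 4, beside 18.5 CPM in Cpa3-high cells. In clusters 1, 7 and 6 it was at 41.5, 47.0 and 116 CPM.

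Among the Cpa3-high cells, Egln3 was lower where Cpa3 was higher. In Em-Ex it was 12.4 CPM (10.2–14.9) in the 652 cells with 40 to 80 Cpa3 UMIs per 10000, 7.61 CPM (6.06–9.44) in the 874 cells with 80 to 160 and 2.69 CPM (1.65–4.16) in the 674 cells above. In YS-Ex it was 16.3 CPM (12.2–21.4), 8.52 CPM (6.76–10.6) and 5.66 CPM (4.42–7.14) in the same ranges. Bnip3 varied less, at 19.6, 19.0 and 16.6 CPM in Em-Ex, where neighbouring intervals overlap, and 33.9, 32.3 and 37.3 CPM in YS-Ex, where the order was not that of Egln3. Just below the limit of 40, the 230 Em-Ex cells with 20 to 40 had Egln3 at 22.0 CPM (17.3–27.7), and the 72 such YS-Ex cells had it at 58.1 CPM (43.0–76.8). Among the Cpa3-low cells of YS-Ex, the 26 that lay in cluster 1 (defined by genes such as Calca and Fcer1a) had a median of 6676 UMIs, with Egln3 at 202 CPM (145–276), Bnip3 at 238 CPM (175–316), Aldoa at 1974 CPM (1783–2180) and Slc2a1 at 111 CPM (69.8–169). Mpo was at 0 in them.

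Of the further glycolysis genes, 5 of the 15 tested were higher and 4 lower in the Cpa3-low cells of Em-Ex, and 1 of 14 was higher and 2 lower in those of YS-Ex, where the shares of all genes were 29.4% and 14.4% for Em-Ex and 18.3% and 6.99% for YS-Ex. In Em-Ex, Eno1, an enolase, was at 381 CPM in Cpa3-low and 233 CPM in Cpa3-high cells, and Pgam1, phosphoglycerate mutase, at 441 and 267 CPM, while Hk1 was at 29.5 and 63.9 CPM. Of the further hypoxia-induced genes, 6 of 18 were higher and 4 lower in Em-Ex, where the share higher is near that of all genes, and in YS-Ex 7 of 20 were higher and 3 lower. Ankrd37 was higher in the Cpa3-low cells of both libraries, with ratios of 2.54 (2.20–2.93) and 2.79 (1.98–3.85), as was Mxi1, a partner of MAX, with 2.56 and 2.89. Bhlhe40, a transcriptional repressor, was lower in both, at 0.275 and 0.456. Hif1a was lower in Cpa3-low cells, at 38.3 against 70.1 CPM in Em-Ex and 74.4 against 197 CPM in YS-Ex, which is the opposite direction to Egln3 and Bnip3.

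Each library was also clustered on its own, with the 8 genes and the pathway lists left out of the clustering, and the levels were read in each cluster as a description. In Em-Ex, Egln3 ranged from 6.18 CPM (3.92–9.27) in cluster 5 to 97.6 CPM (73.9–126) in cluster 9, a set of 37 cells defined by genes such as S100a9 and Fn1 with 12559 CPM of summed macrophage markers. Bnip3, Vegfa, Slc2a1, Pgk1 and Aldoa were highest in that cluster too. Pdk1 was instead highest in cluster 8 (48 cells defined by genes such as Actc1 and Hbb-bs) at 62.6 CPM (45.8–83.5), and next in cluster 3 (466 cells defined by genes such as Mpo, Hoxa9 and Flt3) at 50.1 CPM (45.7–54.8), intervals that overlap. Outside clusters 3, 8 and 9 it was at 13.7 CPM (7.68–22.6) or less. Cluster 3 thus held high Pdk1 with Egln3 at 44.1 CPM (40.02–48.5) but with Aldoa at 722 CPM, its lowest level in the library. Ldha was highest in cluster 4, at 2587 CPM, and in cluster 2, a cycling cluster defined by genes such as Rrm2 and Mki67, at 2544 CPM. The clusters of YS-Ex lay closer together at a clustering resolution of 1, with Egln3 from 4.22 CPM (2.46–6.75) in cluster 3 to 18.8 CPM (15.4–22.8) in cluster 1, Bnip3 from 8.11 to 54.7 CPM and Pdk1 from 2.38 to 7.69 CPM. The highest over the lowest Egln3 level in YS-Ex was 4.47, but 19.9 at resolution 2 and 1.48 at resolution 0.5.

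**Figure D3:**
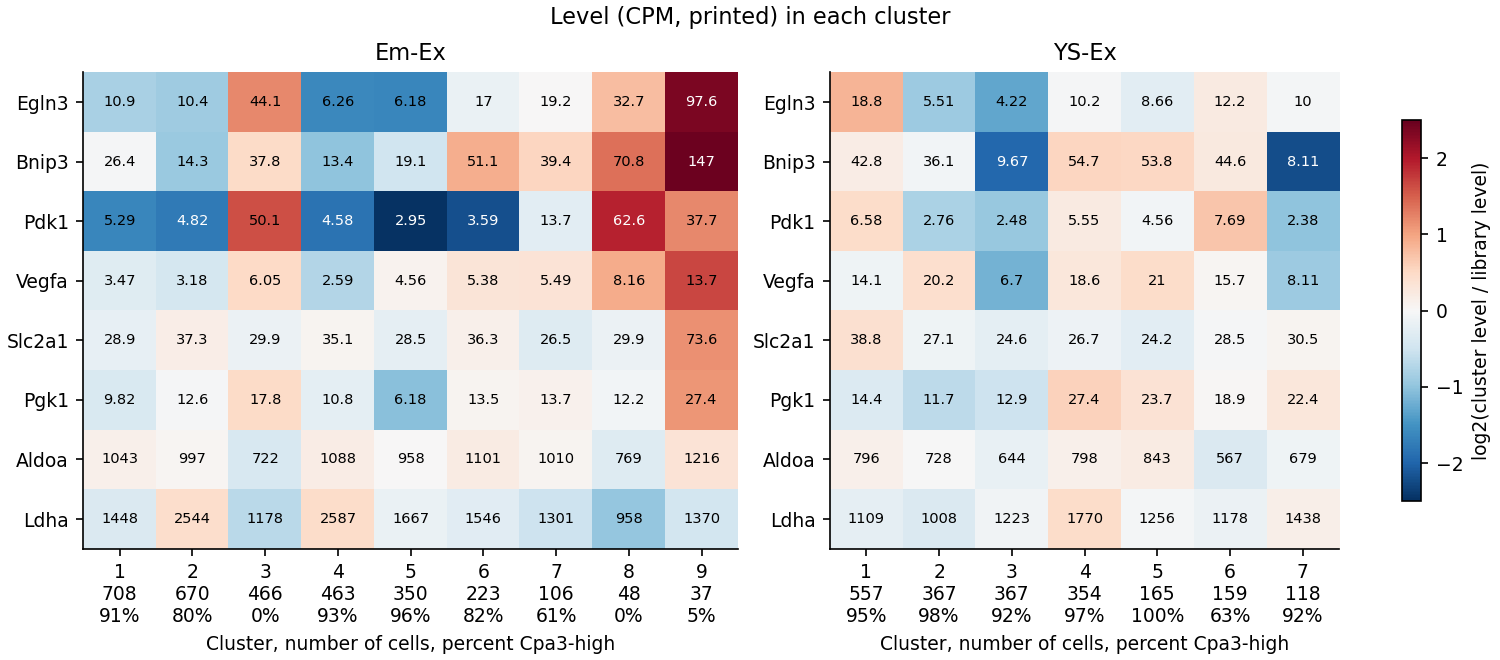
Level of each gene (printed in CPM) in the 9 clusters of Em-Ex and the 7 clusters of YS-Ex, coloured by the log2 ratio to the level over the whole library, with the number of cells and the percentage of Cpa3-high cells under each cluster. Egln3 and Bnip3 are highest in cluster 9 of Em-Ex, at 97.6 and 147 CPM, and Pdk1 is high in clusters 3, 8 and 9, which are nearly without Cpa3-high cells.

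The genes were then read together within single Cpa3-high cells. Each cell was thinned to 5000 UMIs in a separate random draw, so the counts differ slightly from the thinned shares given above. The cells with a UMI of Egln3 among these were set apart, 69 of 2123 cells in Em-Ex and, for YS-Ex, 60 of 1854. Over the full counts, Bnip3 was at 133 CPM in the Egln3-positive and 13.9 CPM in the other cells of Em-Ex, a ratio of 9.56 (7.76–11.7), and in YS-Ex the ratio was 7.81 (6.59–9.21). Every other gene of the 8 except Vegfa in Em-Ex was also higher beyond its counting interval in both libraries. Pdk1 had ratios of 5.96 (3.66–9.34) for Em-Ex and 3.71 (1.79–6.97) in YS-Ex. For Slc2a1 they were 2.45 (1.91–3.10) and 3.05 (2.32–3.95), and for Pgk1 2.83 (1.83–4.21) and 4.10 (3.04–5.45). Aldoa was at 1946 CPM in the positive cells of Em-Ex against 973 CPM in the others, and at 1721 CPM against 688 CPM in YS-Ex. Ldha, with ratios of 1.48 (1.43–1.54) and 1.64 (1.56–1.72), had the smallest. Vegfa had a ratio of 1.60 (0.505–3.88) in Em-Ex, on 5 UMIs in the positive cells, and 2.62 (1.73–3.83) in YS-Ex. Past 1.5-fold, 5 of the 6 genes that passed the level minimum were higher in Em-Ex, where 7.58% of all genes were, and 7 of 7 in YS-Ex, where 8.68% were. Of those counted, 2 in Em-Ex and 1 in YS-Ex met the minimum in the positive cells alone. No gene of the 8 was lower, beside 4.62% and 5.6% of all genes.

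The difference was seen cell by cell in the genes that nearly all cells have. Aldoa had a median of 1392 CPM per Egln3-positive cell in Em-Ex (quartiles 937 and 3238) and 876 CPM (632 and 1171) in the other cells, and 1612 CPM (579 and 2618) against 578 CPM (403 and 843) in YS-Ex. The quartiles overlapped, and the upper quartile of the positive cells lay furthest out. UMIs of Bnip3 were seen after thinning in 29.0% (18.7–41.2%) of the positive and 6.33% (5.31–7.47%) of the other cells of Em-Ex and in 45% (32.1–58.4%) and 9.59% (8.26–11.04%) of those of YS-Ex. Pearson's correlation of log(1 + UMIs) of Egln3 and Bnip3 in the thinned cells was 0.292 over the 2123 Em-Ex cells and 0.338 over the 1854 YS-Ex cells, the largest of the 28 pairs in each library by this measure, as a description of cells that share a library. By Spearman's correlation it was 0.168 and 0.214, below the 0.236 and 0.2197 of Ldha and Aldoa. The levels also followed the number of Egln3 UMIs. In Em-Ex, Bnip3 was at 13.9 CPM (12.5–15.4) in cells with 0, 98.8 CPM (78.4–123) in the 57 cells with 1 and 303 CPM (224–400.3) in the 12 cells with 2 or more, and Aldoa was at 973, 1720 and 3077 CPM. In YS-Ex, Bnip3 was at 28.8 CPM (26.7–31.0), 154 CPM (126–186) and 723 CPM (566–911) and Aldoa at 688, 1490 and 3346 CPM, with 50 and 10 cells in the upper groups.

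**Figure D4:**
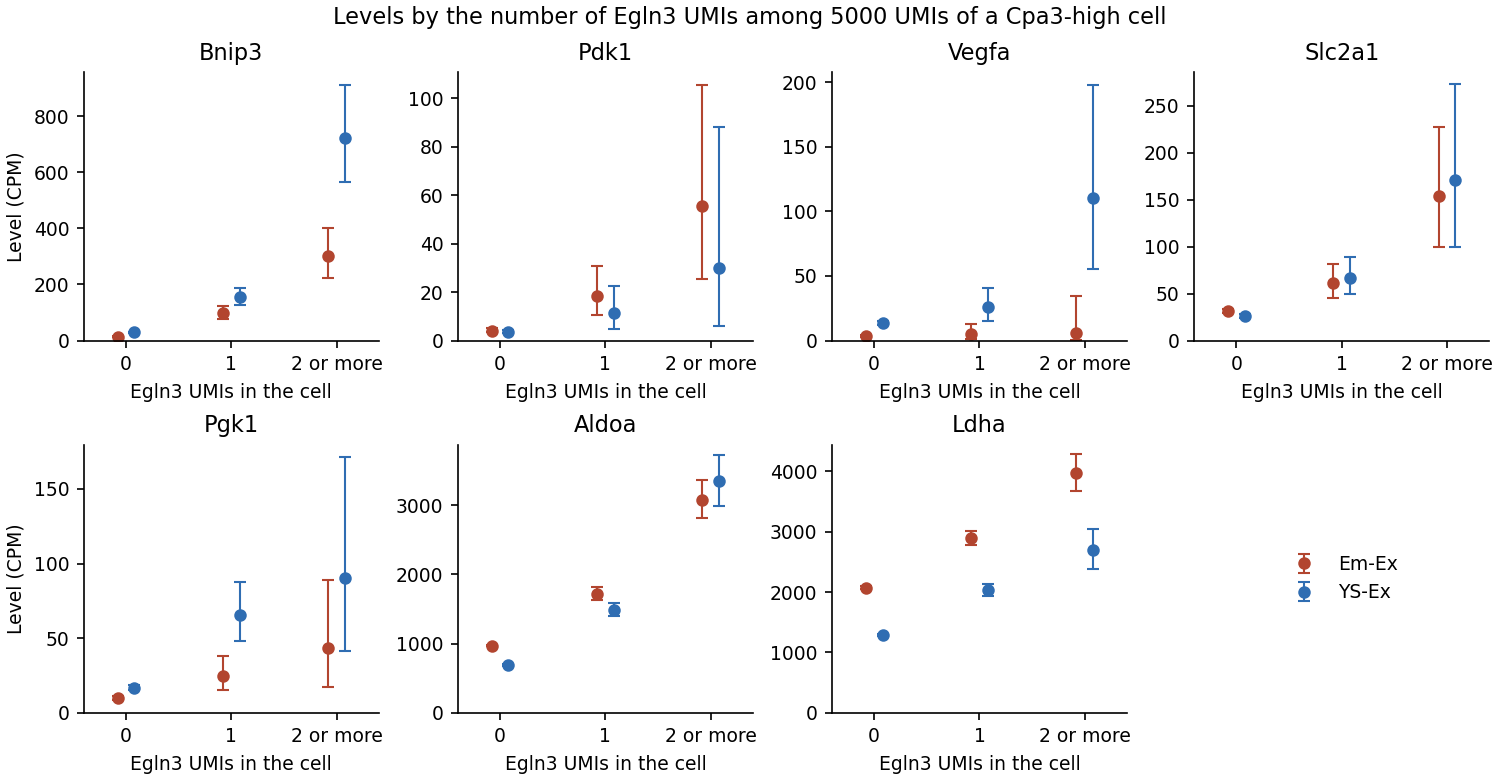
Levels (CPM) of the other 7 genes in Cpa3-high cells with 0, 1 and 2 or more UMIs of Egln3 among 5000 UMIs, in Em-Ex (red) and YS-Ex (blue), with 95% counting intervals. Bnip3, Aldoa, Slc2a1 and Ldha are higher at each step in both libraries with intervals apart, while the intervals of Vegfa in Em-Ex overlap throughout.

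The pathway lists differed in the same cells. Of the further glycolysis genes tested, 12 of 14 were higher past 1.5-fold in the Egln3-positive cells of Em-Ex and 13 of 15 in those of YS-Ex, and none was lower. Of the 13 in each library that met the minimum in the other cells, 11 were higher. Slc2a3 had ratios of 3.29 (2.68–4.01) and 3.91 (3.36–4.52), Slc16a3, which exports lactate, was at 71.2 CPM against 20.2 CPM in YS-Ex, and Gapdh had ratios of 1.703 (1.64–1.77) and 2.13 (2.03–2.23). Hk1, the hexokinase of most tissues, was at 1.06 (0.819–1.36) and 0.996 (0.774–1.26), beside 2.54 (2.08–3.08) and 2.397 (2.05–2.79) for the hexokinase gene Hk2. Of the further hypoxia-induced genes, 11 of 18 were higher in Em-Ex and, for YS-Ex, 17 of 22, and none was lower, and of the 15 that met the minimum in the other cells 8 and 10 were higher. Ankrd37 had ratios of 10.98 (8.56–14.0) and 10.1 (7.31–13.7), Fam162a 2.57 (2.29–2.89) and 3.46 (3.05–3.91) and Ero1l, an oxidase of the endoplasmic reticulum, 2.07 (1.95–2.21) and 2.73 (2.59–2.89). Cited2 was at 0.876 (0.764–1.001) and 1.03 (0.934–1.13). Most genes of oxygen sensing and of the TCA cycle stayed within 1.5-fold. Hif1a had ratios of 0.971 (0.747–1.24) and 1.19 (1.02–1.37), and only Egln1 was past 1.5-fold among the 5 oxygen-sensing genes tested in each library, with 1.57 (0.883–2.59) in Em-Ex and 2.66 (1.79–3.82) in YS-Ex. Of 15 genes of pyruvate use and the TCA cycle, 0 were higher in Em-Ex, and in YS-Ex 1 (Dlat) was higher and 1 (Fh1) lower. The median log2 ratio was 1.04 and 1.20 over the glycolysis genes, 0.95 and 1.26 over the hypoxia-induced genes and 0.12 and −0.07 over the TCA cycle genes, beside 0.05 and 0.03 over all genes tested.

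**Figure D5:**
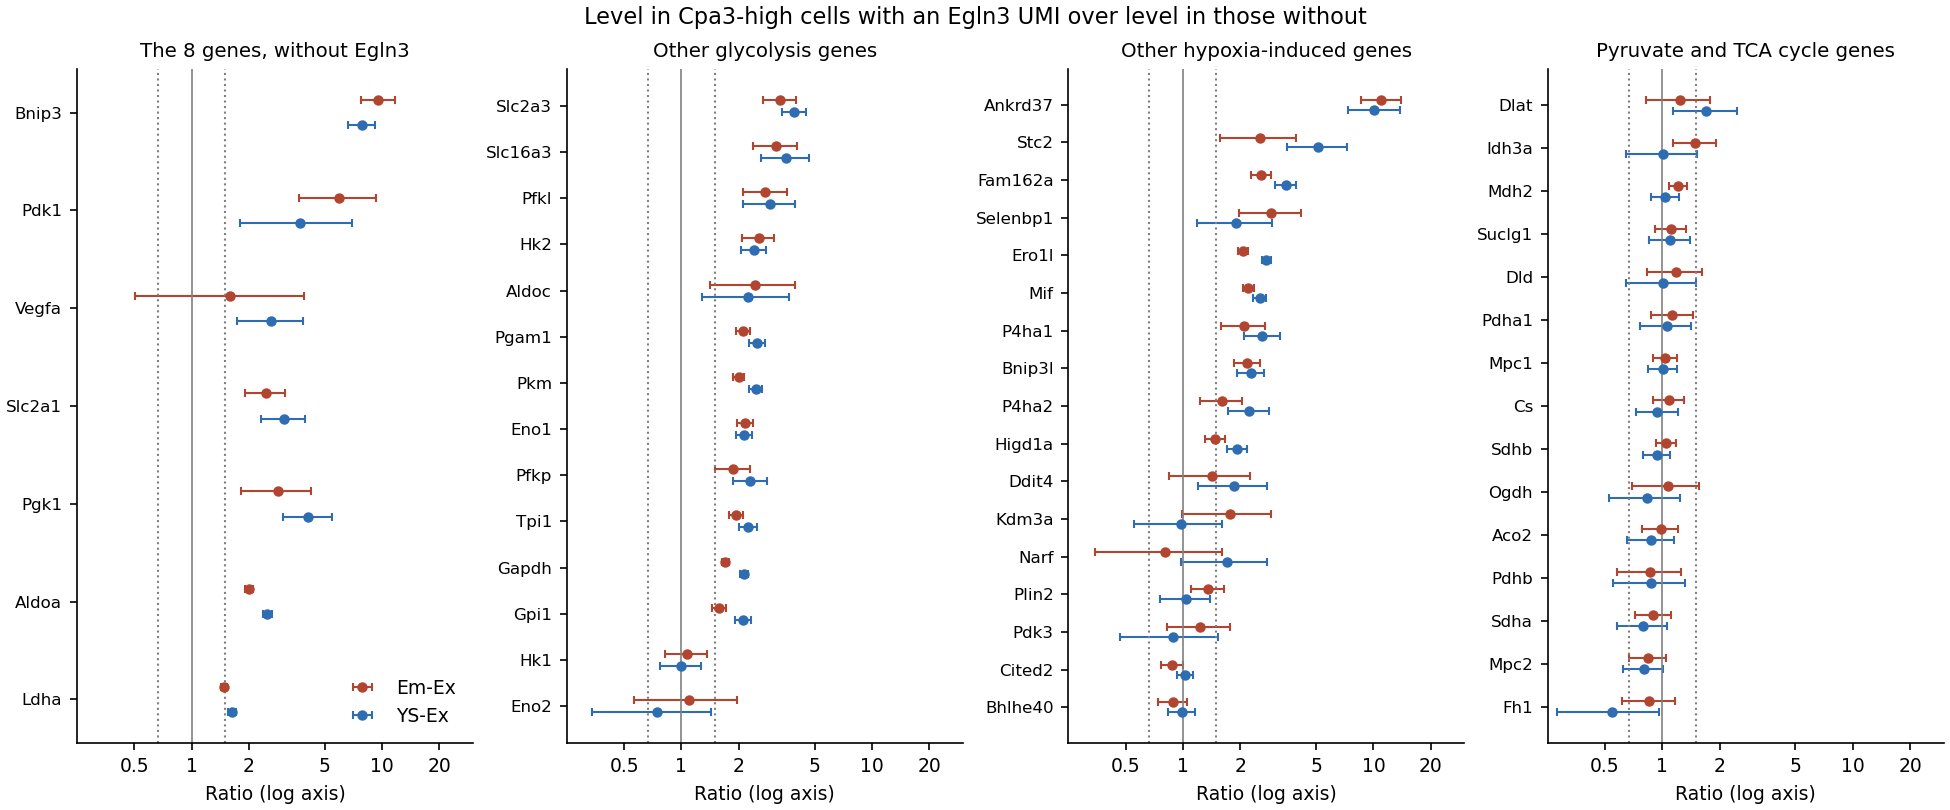
Level in Cpa3-high cells with an Egln3 UMI over the level in those without (log axis), for the other 7 genes, further glycolysis genes, further hypoxia-induced genes and genes of pyruvate use and the TCA cycle that passed the level minimum in both libraries, with 95% counting intervals and dotted lines at 1.5-fold. Ratios of the glycolysis genes lie between 1.5 and 4 apart from Hk1 and Eno2, and those of the TCA cycle genes lie around 1.

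The clusters were made without the 8 genes and the pathway lists. They therefore could not show whether the Egln3-positive cells form a group by these genes. In these clusters the Egln3-positive cells were spread out. In Em-Ex, 36.2% were in the cycling cluster 2 (24.4% of all Cpa3-high cells) and 24.6% in cluster 1 (29.4%), and in YS-Ex 38.3% were in cluster 1 (27.3%). Of the 12 mast cell markers, none was higher past 1.5-fold in either library, and 1 was lower in Em-Ex and 2 in YS-Ex. In Em-Ex, some neutrophil progenitor markers were at higher levels in the Egln3-positive cells, with Prtn3 at 51.5 CPM against 4.68 CPM, Elane at 28.8 CPM against 0.499 CPM and Mpo at 21.6 CPM against 4.07 CPM, which met the level minimum in the positive cells alone. In YS-Ex, Mpo was at 0 in the positive cells and Prtn3 had 2 UMIs in all of them, whereas Adgre1, a macrophage marker, was at 32.5 CPM against 7.86 CPM, Cd68 at 43.7 CPM against 18.2 CPM and Lyz2 at 14.998 CPM against 7.28 CPM, of which Adgre1 and Lyz2 met the level minimum in the positive cells alone. In Em-Ex, Adgre1 was at 20.6 CPM against 7.22 CPM and Lyz2 at 11.3 CPM against 31.1 CPM. Of 12 genes of S phase, 3 were higher in the positive cells of Em-Ex (2 of which met the minimum there alone) and none lower, while in YS-Ex 3 of 11 tested were lower and none higher. The part of these markers in the ratios of the 8 genes was tested for Mpo and Prtn3 alone. Without the cells that had a UMI of Mpo or Prtn3, 5 of the 7 other genes were past 1.5-fold in Em-Ex and, for YS-Ex, 7 of 7, on 56 Egln3-positive cells in each, beside 6 and 7 of 7 with them when no level minimum is set. Divided by Bnip3 in place of Egln3, 150 Em-Ex and 199 YS-Ex cells stood apart, and 5 of the 6 other genes that passed the level minimum for Em-Ex, with 6 of 7 for YS-Ex, were higher past 1.5-fold and none lower (3 and 2 met the minimum in the Bnip3-positive cells alone), beside 3.33% of all genes higher and 3.44% lower in Em-Ex and 2.5% and 1.52% in YS-Ex. Egln3 had ratios of 7.00 (5.195–9.37) and 5.98 (4.48–7.96) in them. A small part of these cells held most of the difference. In Em-Ex, the 30 cells with 2 or more Bnip3 UMIs held 55 Egln3 UMIs, at 154 CPM (116–200.1), while the 120 cells with 1 had Egln3 at 11.4 CPM (6.64–18.3) beside 5.56 CPM (4.68–6.56) in cells with 0, and Slc2a1 at 30.9 CPM (22.6–41.2) beside 31.0 CPM (28.9–33.3). In YS-Ex, Egln3 was at 89.5 CPM (69.1–114) in the 53 cells with 2 or more, 11.2 CPM (7.18–16.7) in the 146 with 1 and 5.19 CPM (4.28–6.23) in the others. Of the mitosis genes tested, 5 of 11 were lower in the Bnip3-positive cells of Em-Ex and 0 of 12 in those of YS-Ex. Of the macrophage markers tested, 2 of 7 were higher in the Bnip3-positive cells of Em-Ex and 3 of 4 in those of YS-Ex. Of these, 1 and 2 met the level minimum in the Bnip3-positive cells alone.

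The genes outside the 8 and the pathway lists whose counts went most with the summed counts of the 8 genes were ranked over the same thinned cells, by the lower of the Pearson correlations in the 2 libraries among 4012 genes. The first 10 were Hsp90b1 (0.219), Calr, Hsp90ab1, Atp5f1, Hdc, Pdia6, Atp5b, P4hb, Slc25a5 and Ybx1 (0.172), of which Hdc is one of the mast cell markers. Ldha and Aldoa make up most of that sum. Without them, Tnfrsf9, a receptor of the tumor necrosis factor family that was singled out after its values were seen, came first with correlations of 0.193 for Em-Ex and 0.159 in YS-Ex. The correlations are across cells that share a library and its depth, and none was tested.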

How the data were processed

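Per the submitters' processing notes, the authors used bcl2fastq 2.19.1.403 and Cell Ranger 2.0.1 with mm10. The annotation is not given in the sources used here. The authors deposited UMI counts per gene and cell of both libraries in 1 table, as raw counts without normalization, and 0 columns were left unmapped to a library. Following the methods, a cell was kept with 1000 to 5000 genes and at most 5% of its UMIs mitochondrial, which left 3071 of 3504 Em-Ex and 2087 of 3037 YS-Ex barcodes, with 3302 to 38114 UMIs. The numbers of cells the study gives equal all deposited barcodes, so the cells used here are fewer than the study's. A level is the UMIs of a gene in all cells of a group divided by all their UMIs, in CPM (per 1000000), and 0.5 was added to counts before taking log2 ratios. A gene counted as tested with at least 10 CPM in 1 group and as higher or lower at 1.5-fold. Doublets were not removed, and 882 Em-Ex and 312 YS-Ex cells lay between 20 and 80 Cpa3 UMIs per 10000. Clusters came from leidenalg 0.10.2 in scanpy 1.11.5 (2000 variable genes, 100 principal components, 20 neighbors, resolution 1), each library alone. Copies were searched with blastn 2.17.0 in GENCODE transcripts, and starts and promoters came from RefSeq GRCm38.p6. Python 3.11.15 was used, and the steps were tested on simulated data. Named were the 8 genes, members of the pathway and marker lists, the genes of the sort, the 10 genes most like the 8 and up to 5 leading genes per cluster, with Tnfrsf9 and Penk added after their values were seen. Members and lists were chosen with earlier results of these data known, and the division of cells by Egln3 was added after the correlations had been seen. Alternatives were other cell filters, scalings, limits on Cpa3, depths, resolutions and leaving out shared barcodes or cycling cells.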

Additional observations from a re-analysis of the deposited data

Results flagged for a closer look

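Aldoa was lower in Cpa3-low than in Cpa3-high cells of Em-Ex, with a ratio of 0.862 (0.844–0.880), and higher in those of YS-Ex, with a ratio of 1.15 (1.09–1.21), so that its directions were opposite with each counting interval on its own side of 1. Slc2a1 was higher in Em-Ex than in YS-Ex among Cpa3-high cells, with a ratio of 1.18 (1.07–1.30), and lower among Cpa3-low cells, with a ratio of 0.761 (0.600–0.977). Neither difference was tested, since 1 library stood for each tissue, and neither ratio reached 1.5-fold. For Aldoa in YS-Ex, the log2 ratio of 0.20 turned to −0.09 with a limit of 20 Cpa3 UMIs per 10000 and to −0.05 without the cells between 20 and 80. In Em-Ex it turned from −0.21 to 0.13 without the cells that had a UMI of Mki67 or Top2a and to 0.19 without clusters 3, 8 and 9.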

How the results depend on the processing

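No paired analysis was possible because each tissue had 1 library and no test was run. Of 256 log2 ratios of the 8 genes under the alternatives, 245 kept their sign and 173 stayed within their counting interval. Egln3, at 0.88 in Em-Ex against YS-Ex, turned to −0.0416 in Cpa3-high cells alone, where 1 gene was higher and 3 were lower (2 and 1 over all cells). On every deposited barcode Egln3 was at 1.13, with 3 genes higher (Ldha added). Averaged over cells, 1 was higher and 2 lower, with Egln3 (0.55) no longer past 1.5-fold and Pgk1 (−0.60) past it. Without cells with a UMI of Mki67 or Top2a, 2 were higher and 2 lower, with Egln3 at 0.40, Ldha at 0.63, Pgk1 at −0.72 and Pdk1 at 0.99. For Cpa3-low against Cpa3-high cells of Em-Ex, 1 gene (Ldha) instead of 0 was lower with median-ratio scaling, with a limit of 20 Cpa3 UMIs per 10000 and without the cells between 20 and 80. Leaving out clusters 3, 8 and 9, which was chosen after seeing the data, left 3 of 5 genes higher and turned Pdk1 from 2.89 to −0.20. In YS-Ex, 3 of 5 were higher with median-ratio scaling, with a limit of 20 and without the cells between 20 and 80, and 2 with a limit of 80. By shares of cells, 2 of the 8 genes were at 1.5 times or more in Cpa3-low cells of YS-Ex, and 5 after thinning to 5000 UMIs. The correlation of Egln3 and Bnip3 was 0.227 in Em-Ex and 0.280 in YS-Ex at 3000 UMIs, and Spearman's was 0.168 and 0.214. The highest over the lowest Egln3 level among clusters, 15.8 in Em-Ex and 4.47 in YS-Ex, was 35.6 and 19.9 at resolution 2, and 1.48 in YS-Ex at resolution 0.5. The causes of these changes were not tested. Vegfa in the Egln3-positive cells of Em-Ex rested on 5 UMIs.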

Other observations

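The deposited table also held the barcodes that the filter on cells removed. In the 917 YS-Ex barcodes with over 5% mitochondrial UMIs, which had a median of 6031 UMIs, Egln3 was at 2.70 CPM (1.57–4.32), against 10.4 CPM (9.22–11.7) in the cells kept, while Vegfa was at 20.3 CPM (17.0–24.2) against 15.2 CPM (13.8–16.7). In the 353 such Em-Ex barcodes, with a median of 5953 UMIs, Egln3 was at 9.71 CPM (6.29–14.3) against 19.2 CPM (17.9–20.5), and Pdk1 at 6.22 CPM (3.55–10.1) against 16.4 CPM (15.3–17.7). In the 80 Em-Ex barcodes with over 5000 genes, Egln3 was at 32.7 CPM (26.8–39.5) and Pdk1 at 37.8 CPM (31.5–45.1).

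Some genes of the pathways showed a library-specific pattern next to the 8 genes. Ldhb, the other lactate dehydrogenase subunit, was at 4.61 CPM in Em-Ex, where it had a ratio of 11.7 (7.72–18.4) between Cpa3-low and Cpa3-high cells, and was listed at 0 in YS-Ex, as were Hk3 and Hif3a. Hmox1, heme oxygenase, was at 57.1 CPM in Cpa3-low and 7.05 CPM in Cpa3-high cells of YS-Ex, but at 14.9 and 14.4 CPM in those of Em-Ex. Penk was at 70.0 CPM in the Egln3-positive and 6.03 CPM in the other Cpa3-high cells of YS-Ex, a gene that was singled out after its values were seen.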
